A study of Mus musculus with 4 samples.

Results

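Imprinted genes are expressed mainly from the copy inherited from 1 parent. A set of 10 of them, Nnat, Meg3, Rian, Mirg, Peg3, Snrpn, Ndn, Dlk1, Plagl1 and Impact, was followed by gene symbol through single-nucleus RNA profiles of the developing mouse superior colliculus, the midbrain centre that receives input from the eye. Of the 10 symbols, 9 were found among the 31053 genes of the count matrix; Rian was not analysed here. The genes were chosen by earlier results of the same data, in which Nnat stood among the largest falls of neurons between P8 and P21, so the levels of these genes are given as a description and no test is attached to them.

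The tissue came from C57BL/6J mice at embryonic day 19 (E19) and at postnatal days 4, 8 and 21 (P4, P8 and P21), with no other treatment or allele named in the labels. Each stage was 1 library made from pooled tissue of several animals, of unstated number and sex, so a difference between stages cannot be told apart from a difference between libraries. The libraries held 2585, 2386, 2504 and 2249 nuclei from E19 to P21, with median totals of 6828, 9044.5, 9672 and 11745 unique molecular identifiers (UMIs, counts of distinct captured RNA molecules) per nucleus. Cell classes and neuron subtypes (EN1 and so on for excitatory, IN1 and so on for inhibitory neurons) were those of the deposited annotation.

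In imprinting, methylation laid down in the egg or sperm keeps 1 parental copy silent in the offspring, and neighbouring genes often share a control region. Brain is a tissue in which many imprinted genes are strongly expressed, and several of them act on growth, feeding and neuronal survival. The mice were of a single inbred strain and the files held no counts by allele, so the parental origin of the RNA could not be measured. Levels are given as CPM, the UMIs of a gene for each 1000000 UMIs of a class in a library, with an exact 95% Poisson interval. Such intervals, and those of the ratios below, cover counting error only, and ratios of 2 groups carry an exact conditional binomial interval.

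Some facts of the libraries bear on all results. The share of nuclei with a UMI of Xist, the RNA of the inactive X chromosome, ran 0.967%, 46.0%, 40.7% and 68.1% from E19 to P21, so the libraries differed in sex makeup as well as in age. The part of sex makeup in any difference between stages was not tested. Among the libraries, 9 barcodes occurred in more than 1. The markers of excitatory neurons, inhibitory neurons, microglia, endothelial and vascular leptomeningeal cells were summed highest in the class of that name in each library, except that at P8 the excitatory markers stood at 184 CPM in microglia (14 UMIs) and 183 CPM in excitatory neurons. Astrocyte markers were summed higher in vascular leptomeningeal cells than in astrocytes at E19 and P4. The markers fixed for epithelial cells (Ttr, Folr1, Kl and Otx2) were summed higher in other classes in all 4 libraries, so the class labelled Epithelial Cell is called by that label only. It was led by Slc47a1, Gm6260, Slc47a2 and Slc26a7.

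A gene counted as higher or lower between 2 stages when its log2 ratio, with 5 CPM added to both levels, was at least 1 in size and the higher level was at least 20 CPM. In neurons, 7 of the 9 genes reached that level. Between E19 and P21, 2 of the 7 rose in excitatory neurons (Peg3 and Impact), where 5.35% of all genes did, and 2 fell (Nnat and Ndn), where 10.7% did. The same 4 genes moved the same way in inhibitory neurons, where 5.83% of all genes rose and 11.3% fell. The median log2 ratio of the 7 genes was 0.36 in excitatory neurons, against -0.06 over all genes, and 0.53 in inhibitory neurons, against -0.04. Meg3, Mirg and Snrpn stayed within 2-fold over the whole interval, and Dlk1 and Plagl1 were below 20 CPM in both classes in every library. The panels of level by stage show these courses side by side.

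**Figure D1:**
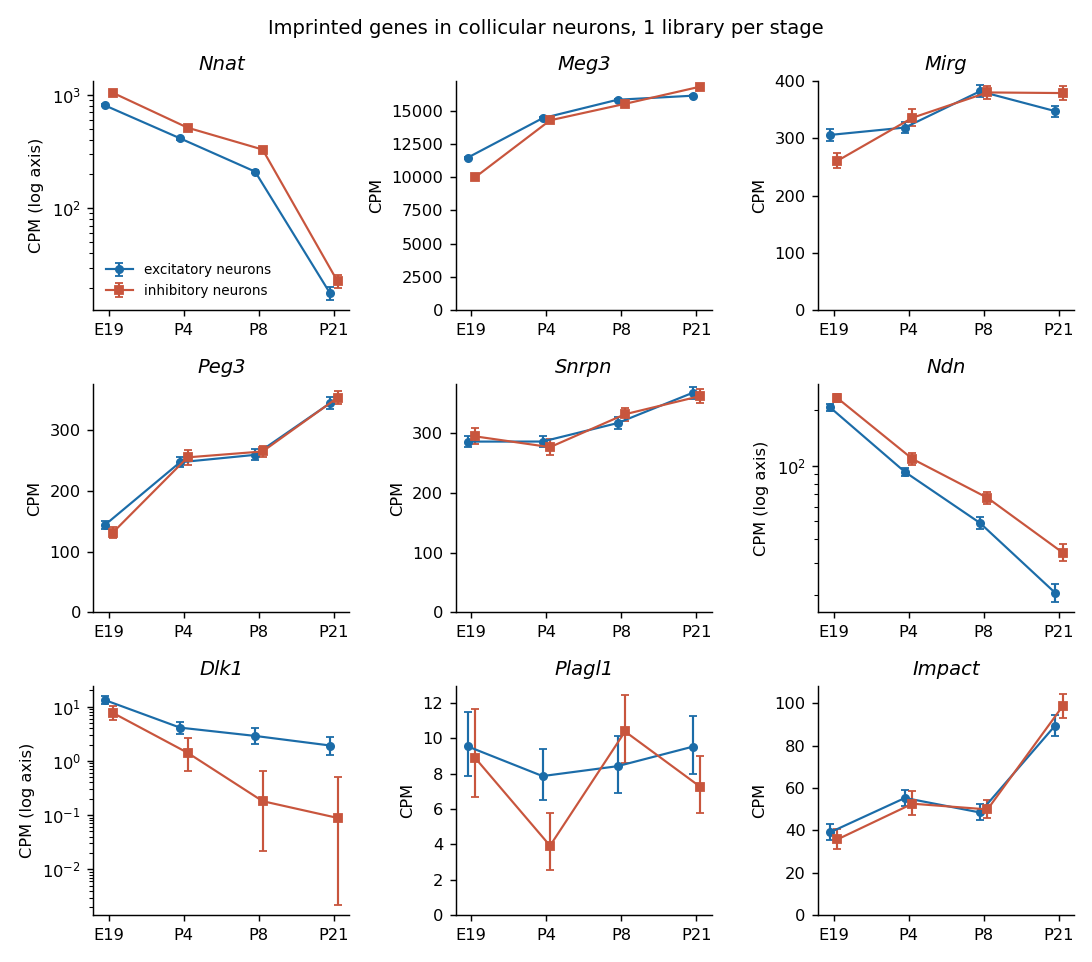
Level of each of the 9 genes in excitatory neurons (circles) and inhibitory neurons (squares) at the 4 stages, in CPM; bars are exact 95% Poisson intervals of 1 library and cover counting error only. The axes of Nnat, Ndn and Dlk1 are logarithmic. Nnat and Ndn were lower at each later stage in both classes, and Peg3 and Impact were higher at P21 than at E19.

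Nnat (ENSMUSG00000067786, chr2:157560078-157562522, plus strand, GRCm38) encodes neuronatin, a small membrane proteolipid of the endoplasmic reticulum, and is transcribed from the paternal copy. It lies on the opposite strand within Blcap. The 250 bases before its start, as given by RefSeq for GRCm38.p6, are shown because Nnat had the largest change of the set. They lie at chr2:157559828-157560077 on the plus strand and hold 12 CpG dinucleotides, the sites that imprinting methylates.
Nnat upstream: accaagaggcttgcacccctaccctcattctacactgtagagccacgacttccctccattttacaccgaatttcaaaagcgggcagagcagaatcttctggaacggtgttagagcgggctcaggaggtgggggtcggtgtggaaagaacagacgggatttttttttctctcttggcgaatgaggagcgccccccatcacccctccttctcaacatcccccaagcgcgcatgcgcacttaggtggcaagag
With the 50 bases after the start the window held 17 CpG, and 31.4% of 32851 windows of 300 bases at mouse gene starts held as many or more, against a median of 7. The data hold no methylation, so the state of these sites was not measured.

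In excitatory neurons Nnat stood at 802 CPM (786 to 819) at E19, 412 CPM (402 to 423) at P4, 210 CPM (202 to 218) at P8 and 17.8 CPM (15.7 to 20.1) at P21. In inhibitory neurons it stood at 1040 CPM (1014 to 1066), 511 CPM (494 to 529), 328 CPM (318 to 339) and 22.6 CPM (20 to 25.6). No interval of 1 stage overlapped that of another in either class, and the last step was the largest. From P8 to P21 Nnat fell 11.8-fold in excitatory neurons (10.4 to 13.4) and 14.5-fold in inhibitory neurons (12.8 to 16.5), a step at which 3.2% and 3.28% of all genes fell. Of the 7 genes, Ndn joined it at this step in excitatory neurons and none did in inhibitory neurons. Since this contrast chose Nnat, its fall is a description. Over the whole interval it was 45.1-fold lower at P21 in excitatory neurons (39.8 to 51.2) and 45.9-fold lower in inhibitory neurons (40.5 to 52.2).

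The fall was seen in the share of nuclei as well as in the level. At least 1 Nnat UMI was found in 98.4%, 96.5%, 89.3% and 25.5% of excitatory nuclei from E19 to P21, although the median depth of these nuclei went from 8051.5 to 19601 UMIs. With each nucleus thinned to 2000 UMIs the shares were 75.5%, 53.7%, 32.6% and 2.35%. In inhibitory neurons the unthinned shares were 98.9%, 96.7%, 93.2% and 26.9%, and the thinned ones 83.4%, 64.2%, 47.7% and 5%. At P21, then, most neuronal nuclei gave no Nnat UMI at all. Microglia served as a measure of free RNA, since neuronal RNA should be scarce there: 18.2% of their nuclei (33 nuclei, median depth 2994) had a Nnat UMI at P21 and 92.3% (13 nuclei, median depth 4324) at E19. Their level was 690 CPM (491 to 943) at E19, 413 CPM at P4, 224 CPM at P8 and 54.0 CPM at P21. The level of excitatory neurons was inside the microglial interval at E19, below the microglial level at P4 and P8 though inside its intervals (279 to 590 and 130 to 358), and below the interval at P21 (19.8 to 118). That of inhibitory neurons was above the interval at E19 and inside it at the other stages. In CPM, then, the neuronal level of Nnat was above the microglial interval in inhibitory neurons at E19 only. Microglial nuclei were shallower than neuronal ones, so the same number of free UMIs makes a larger CPM in them. At E19, 39 Nnat UMIs came from 13 microglial nuclei, 9254 from 1338 excitatory and 6200 from 893 inhibitory nuclei. At P21 the counts were 6 from 33, 260 from 682 and 256 from 740. Whether neurons held Nnat above free RNA cannot be settled from CPM and was not tested.

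The fall was seen in each neuron subtype compared, those with at least 30 nuclei at both stages of a step. At E19 the excitatory subtypes ran from 450.5 CPM of Nnat in EN8 to 1227 CPM in EN2, and at P21 from 9.57 CPM in EN6 to 27.6 CPM in EN1. The inhibitory subtypes ran from 870 CPM in IN1 to 1529 CPM in IN7 at E19, and from 16.4 CPM in IN7 to 33.1 CPM in IN10 at P21. The subtype with the highest level at E19 was thus not the highest at P21 in either class. At P21 the fold of IN10 over IN7 was 2.02 with an interval of 0.91 to 4.52, so counting does not set them apart. All 11 excitatory subtypes with at least 30 nuclei at both P8 and P21 fell, by log2 ratios between -4.14 in EN12 and -2.65 in EN13, and all 10 inhibitory subtypes fell, by ratios between -4.04 in IN7 and -3.17 in IN5. Nnat was also lower at the later stage in each subtype compared from E19 to P4 (11 excitatory and 8 inhibitory) and from P4 to P8 (10 and 8). Between the neuron classes it was higher in inhibitory neurons in all 4 libraries, by 1.30-fold, 1.24-fold, 1.56-fold and 1.27-fold, each with an interval above 1, and it stayed on that side under each alternative tried.

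**Figure D2:**
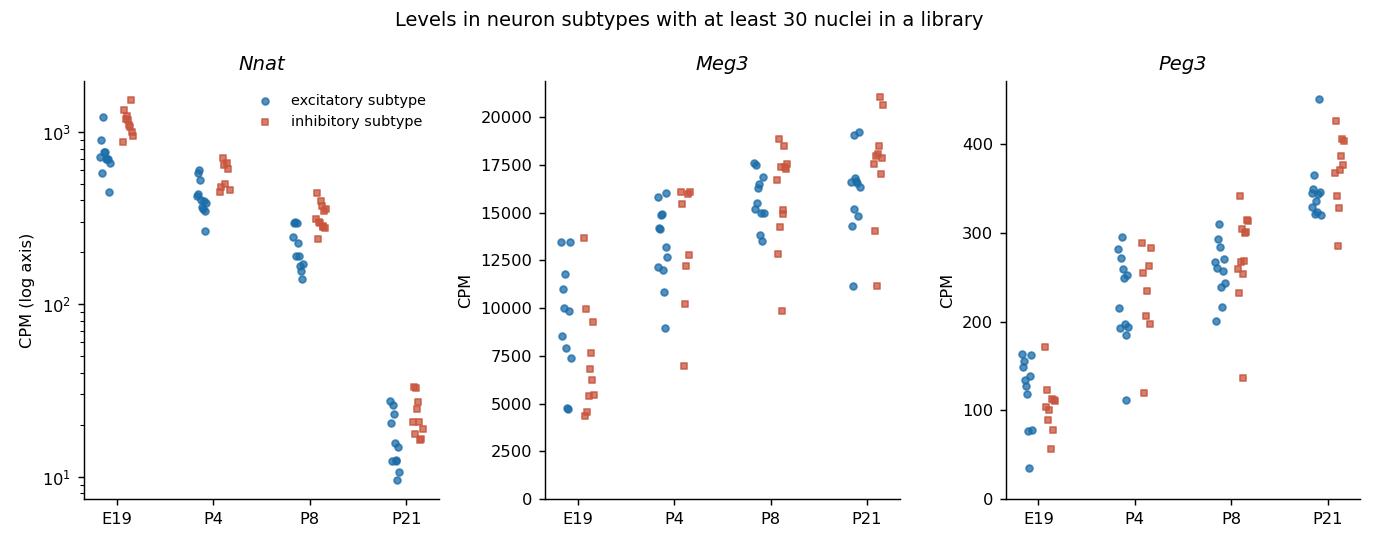
Levels of Nnat (log axis), Meg3 and Peg3 (linear axes) in CPM; each point is 1 neuron subtype with at least 30 nuclei in that library, circles for excitatory and squares for inhibitory subtypes. All Nnat points of P21 lie below all those of the other stages, while the Meg3 and Peg3 points of P21 lie mostly above those of E19.

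Outside neurons the course of Nnat differed by class. Astrocytes held 1486 CPM at E19, 810 CPM at P4, 550 CPM at P8 and 184 CPM (164 to 206) at P21, a fall of 2.99-fold (2.61 to 3.44) at the last step. Cells of the oligodendrocyte lineage held 855, 616, 461 and 47.2 CPM, and at P21 their precursors held 187 CPM of Nnat, committed cells 47.3 CPM and myelinating cells 20.4 CPM. Astrocytes therefore had 1.68-fold the Nnat level of neurons at E19 and 9.23-fold at P21. Vascular leptomeningeal cells, the fibroblasts of the meninges and vessels, held 2069 CPM (1883 to 2268), 2075 CPM (1950 to 2206), 937 CPM (853 to 1028) and 1302 CPM (1230 to 1378). From P8 to P21 this class was 1.39-fold higher (1.25 to 1.55), within 2-fold, and at P21 it held 65.4-fold (58.9 to 72.7) the level of neurons, against 2.34-fold at E19. Endothelial cells, of which no library had more than 22, held 315, 240, 129 and 13.6 CPM. Dividing cells held 929, 577, 378 and 99.9 CPM. In the class labelled Epithelial Cell the values were 1293, 303, 134 and 47.3 CPM, and at E19 42 of its 80 Nnat UMIs came from 1 nucleus.

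The leptomeningeal value was uneven among nuclei. The median nucleus held 1061 CPM of Nnat at E19, 900 CPM at P4, 288 CPM at P8 and 508 CPM at P21. Nuclei without a Nnat UMI numbered 0 of 36, 3 of 78, 16 of 70 and 33 of 139. The tenth of nuclei with the most Nnat held 36.3%, 50.6%, 51.7% and 42.8% of the class's Nnat UMIs. Across these nuclei the Pearson r of Nnat with Col1a1, a collagen of fibroblasts, was -0.51, -0.50, -0.26 and -0.51. With Col1a2 it was -0.32, -0.38, -0.09 and -0.25, and with Lum -0.26, -0.13, -0.15 and -0.29. With Slc6a13, a GABA transporter of meningeal cells, it was -0.05, 0.04, 0.05 and 0.32. Nuclei of 1 library share its depth and free RNA. The 5 astrocyte markers summed to 3164, 2764, 2925 and 1447 CPM in this class, against 2209, 2160, 3203 and 5960 CPM in astrocytes. The markers of its own name summed to 4497, 3093, 2676 and 1749 CPM. The part of the class's makeup in its Nnat level was not tested.

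**Figure D3:**
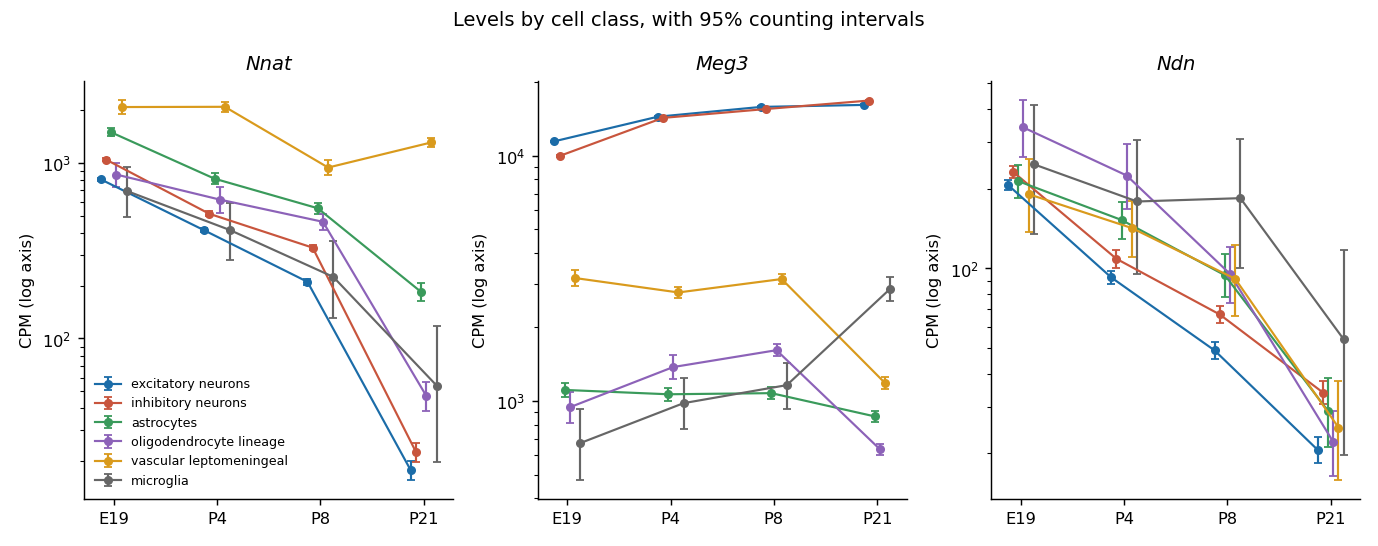
Levels of Nnat, Meg3 and Ndn in CPM on log axes in 6 cell classes at the 4 stages; bars are exact 95% Poisson intervals. At P21 Nnat was highest in vascular leptomeningeal cells and lowest in neurons, Meg3 was highest in neurons in every library, and Ndn was lower at P21 than at E19 in all 6 classes.

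Blcap, the gene that encloses Nnat, also fell, from 68.0 CPM at E19 to 18.4 CPM at P21 in excitatory neurons and from 87.2 to 18.6 CPM in inhibitory neurons. Nnat fell more. For each 1000 Blcap UMIs, excitatory neurons held 11804, 9791, 7822 and 967 Nnat UMIs, and inhibitory neurons 11923, 10241, 8141 and 1219. No source states whether counting used strand, and without strand reads of the overlap cannot be assigned.

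Nuclei carry a variable amount of RNA from the cytosol, and some cytosolic RNAs were lower at each later stage in neurons. The 101 ribosomal protein genes summed to 4222, 2795, 2015 and 1469 CPM in excitatory neurons and to 5133, 3372, 2427 and 1535 CPM in inhibitory neurons. In vascular leptomeningeal cells they summed to 6811, 4819, 3632 and 1827 CPM, whereas in endothelial cells they were higher at P4 (12449 CPM) than at E19 (11337 CPM). Actg1, a cytoskeletal actin, stood at 373, 183, 88.0 and 23.8 CPM in excitatory neurons. Mitochondrial transcripts, also from outside the nucleus, took another course: they summed to 5135, 7416, 2232 and 1719 CPM in excitatory neurons, highest at P4, and in vascular leptomeningeal cells they went from 5562 CPM at P8 to 7874 CPM at P21. Relative to the ribosomal protein genes, a scale chosen after seeing the data, Nnat was still 8.60-fold lower at P21 than at P8 in excitatory neurons (7.57 to 9.80) and 9.17-fold lower in inhibitory neurons (8.08 to 10.4). Over the same step it was 1.48-fold lower in astrocytes, 4.49-fold lower in the oligodendrocyte lineage and 2.76-fold higher in vascular leptomeningeal cells (2.48 to 3.09). In the last class the ribosomal sum itself was 1.99-fold lower at P21 than at P8, which raises values on this scale. The median log2 ratio of all genes from P8 to P21 was 0.45 in excitatory and 0.65 in inhibitory neurons. It was not computed on this scale for the other classes. On that scale 72.5% of all genes were higher by 2-fold or more at P21 than at E19 in excitatory and 81.4% in inhibitory neurons, with median log2 ratios of 1.34 and 1.53, and values on it are read against that shift. There Meg3 stood at 2.01 and 2.49, Peg3 at 2.71 and 3.08 and Impact at 2.50 and 2.90, all above the shift, and Nnat at -3.78 and -3.62, below it. The part of cytosolic RNA in the stage differences was not tested further.

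**Figure D4:**
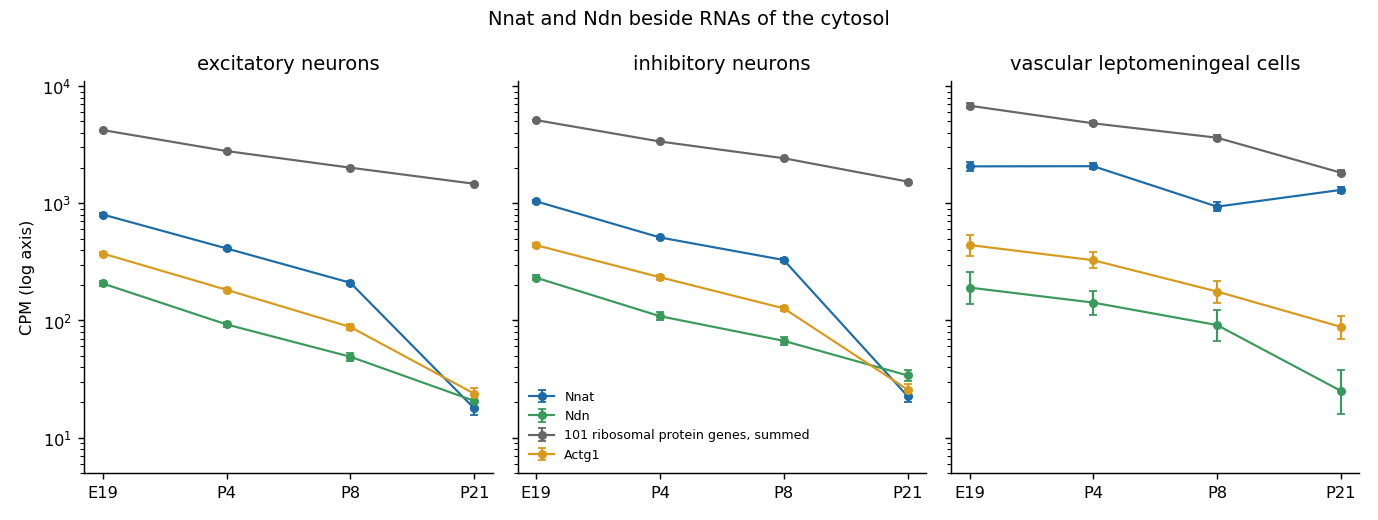
Nnat, Ndn, Actg1 and the sum of 101 ribosomal protein genes in CPM (shared log axis) in excitatory neurons, inhibitory neurons and vascular leptomeningeal cells; bars are exact 95% Poisson intervals. All 4 measures were lower at each later stage in neurons, whereas in vascular leptomeningeal cells Nnat was higher at P21 than at P8 and the other 3 were lower.

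Meg3 (ENSMUSG00000021268, chr12:109541001-109571726, plus strand) is a long noncoding RNA of the maternal copy that stays in the nucleus. It opens a row of maternally expressed noncoding RNAs, followed by Rian (chr12:109603940-109661716) and Mirg (ENSMUSG00000097391, chr12:109729764-109749460), which host small nucleolar RNAs and microRNAs, while Dlk1 and Rtl1 of the same domain are paternally expressed. The 250 bases before the RefSeq start of Meg3 (GRCm38.p6, chr12:109540746-109540995, plus strand) are shown beside those of Peg3 (chr7:6730420-6730669, minus strand). Windows of Rian and of each of the genes measured here were searched, 13 windows in all, with Impact left out. Of these, only the 2 windows shown held the palindrome TGACGTCA, the consensus site of cAMP-response-element binding factors, which is in capitals.
Meg3 upstream: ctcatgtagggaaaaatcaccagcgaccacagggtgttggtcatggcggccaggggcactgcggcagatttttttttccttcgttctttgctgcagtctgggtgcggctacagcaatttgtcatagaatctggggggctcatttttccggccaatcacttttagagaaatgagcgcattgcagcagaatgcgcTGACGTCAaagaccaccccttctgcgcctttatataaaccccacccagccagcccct
Peg3 upstream: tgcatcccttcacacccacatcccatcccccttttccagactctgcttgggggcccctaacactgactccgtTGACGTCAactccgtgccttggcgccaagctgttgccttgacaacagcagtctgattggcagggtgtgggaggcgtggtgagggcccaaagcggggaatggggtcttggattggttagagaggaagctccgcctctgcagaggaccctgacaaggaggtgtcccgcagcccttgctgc
This motif was chosen after the sequences had been viewed. It occurred in 588 of the 32851 windows of the reference, 1.79%, and a match is a string of letters, not a measured binding site. The window of Usp29, a neighbour of Peg3 on the opposite strand, overlaps that of Peg3 and also held 1 match. TGCCGC, searched on both strands, was in 4 of the 13 windows and in 11.6% of all windows.

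Meg3 was one of the most abundant RNAs of neuronal nuclei, with a UMI in each excitatory and each inhibitory nucleus of all 4 libraries. In excitatory neurons it stood at 11450 CPM (11388 to 11512) at E19, 14423 CPM at P4, 15813.5 CPM at P8 and 16116 CPM at P21. In inhibitory neurons it stood at 9974, 14264.5, 15506 and 16796 CPM. It thus made up 1.15% of excitatory UMIs at E19 and 1.61% at P21. The level at P21 was 1.41-fold that at E19 in excitatory neurons (1.40 to 1.42) and 1.68-fold in inhibitory neurons (1.67 to 1.70), both within 2-fold. At 1 nucleus of P21, Meg3 reached 2628 UMIs.

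Subtypes were further apart in Meg3 at E19 than at P21. At E19, EN6 held 4732 CPM and EN1 13479 CPM, and IN10 held 4346 CPM against 13671 CPM in IN1. At P21 the excitatory subtypes ran from 11171 CPM in EN12 to 19218 CPM in EN8, and the inhibitory ones from 11139 CPM in IN3 to 21064 CPM in IN6. Meg3 was higher at P21 than at E19 in all 9 excitatory subtypes compared, 4 of them by 2-fold or more, and in all 10 inhibitory subtypes, 7 of them by 2-fold or more. From P8 to P21 it was higher in 7 of 11 excitatory and 9 of 10 inhibitory subtypes, none by 2-fold.

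Other classes held far less Meg3. Astrocytes held 1108, 1064, 1075 and 864 CPM from E19 to P21. The oligodendrocyte lineage held 941, 1373, 1609 and 635 CPM and fell 2.53-fold (2.35 to 2.74) at the last step, with 20% of all genes falling in that class. Vascular leptomeningeal cells held 3169, 2768, 3139 and 1183 CPM and fell 2.65-fold (2.45 to 2.87) from P8 to P21, a step at which 8.5% of genes fell in the class. Endothelial cells held 4118, 1248, 1313 and 1315 CPM of Meg3, and dividing cells 660, 970, 1120 and 1148 CPM. Microglia held 672, 978, 1159 and 2863 CPM, with a Meg3 UMI in 92.3% of nuclei at E19 and 100% at P21. Of the 318 Meg3 UMIs of microglia at P21, 148 came from 1 nucleus. Since microglia should lack neuronal RNA, their level gives a rough measure, in CPM of shallower nuclei, of the free Meg3 RNA in each library.

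Mirg, the host of the last microRNA cluster of the domain, stayed within 2-fold in neurons, as Meg3 did. In excitatory neurons it stood at 306 CPM at E19, 319 CPM at P4, 383 CPM at P8 and 348 CPM at P21, and in inhibitory neurons at 261, 336, 381 and 379 CPM. For each 1000 Meg3 UMIs there were 26.7, 22.1, 24.2 and 21.6 Mirg UMIs in excitatory neurons and 26.2, 23.6, 24.5 and 22.6 in inhibitory neurons. The ratio thus stayed between 21.6 and 26.7 in neurons and was highest at E19 in both classes. From P8 to P21 in excitatory neurons Mirg was lower, at 0.910-fold (0.875 to 0.946), while Meg3 was at 1.02-fold (1.01 to 1.03). In astrocytes the ratio was 16.6, 12.1, 12 and 9.96, and in vascular leptomeningeal cells 31.6, 38.9, 31.1 and 30.4. In the latter class Mirg fell with Meg3 from 97.6 CPM at P8 to 36.0 CPM at P21. Microglia gave no Mirg UMI at E19 and P4, which allows up to 53.1 and 41.3 CPM. B830012L14Rik, a noncoding RNA between Rian and Mirg, stood at 70.9, 83.0, 92.6 and 80.2 CPM in excitatory neurons and at 63.6, 84.4, 90.4 and 73.6 CPM in inhibitory neurons. Gm26945, annotated inside the span of Rian, stood between 13.6 and 16.8 CPM in excitatory neurons and between 9.90 and 16.4 CPM in inhibitory neurons.

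The RefSeq annotation places 57 microRNA genes with 106 mature forms on the plus strand between the start of Meg3 and the end of Mirg, and 14 of these genes with 26 mature forms lie in Mirg. Their mature forms are too short for the poly(A)-based libraries, so only the host RNA was measured. The seed, bases 2 to 8, chooses the targets of a microRNA. The 26 mature forms of Mirg had 25 distinct seeds, and the pairs with a shared seed that involve Mirg are shown with the seed in capitals. The first pair lies within Mirg, while of the second miR-410-5p lies in Mirg and miR-494-5p upstream of it.
miR-453: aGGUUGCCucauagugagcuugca
miR-496a-5p: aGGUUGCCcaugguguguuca
miR-410-5p: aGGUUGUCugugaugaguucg
miR-494-5p: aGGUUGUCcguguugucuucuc
Across the stretch from Meg3 to Mirg, 9 seeds were shared, by 18 mature forms in all.

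Dlk1 (ENSMUSG00000040856, chr12:109452823-109463336, plus strand), a membrane protein related to Notch ligands, was rare in neurons. Excitatory neurons gave 152, 61, 38 and 28 Dlk1 UMIs from E19 to P21, which is 13.2 CPM (11.2 to 15.5), 4.10, 2.88 and 1.92 CPM. Inhibitory neurons gave 46, 9, 2 and 1 UMIs. The excitatory level was 1.71-fold the inhibitory one at E19 (1.22 to 2.43) and 2.91-fold at P4 (1.43 to 6.66). At P8 and P21 the ratios of 16.0 (4.13 to 137) and 21.7 (3.58 to 886) rest on the 2 and 1 inhibitory UMIs. Dlk1 was highest in endothelial cells at E19, at 207 CPM from 23 UMIs in 9 of 13 nuclei. That class held 43.6 CPM at P4 and no Dlk1 UMI at P8 or P21. Vascular leptomeningeal cells held 90.9, 16.2, 8.31 and 2.18 CPM of Dlk1. Among excitatory subtypes at E19, EN7 was highest at 35.3 CPM.

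The other protein genes of the domain were also rare or within 2-fold. Rtl1, a retrotransposon-derived gene on the strand opposite to the noncoding RNAs, stood at 4.94 CPM at E19 and 7.53 CPM at P21 in excitatory neurons. Dio3, a deiodinase that inactivates thyroid hormone, gave 13, 3, 1 and 0 UMIs in excitatory neurons. Begain, a postsynaptic protein, stood at 45.6 CPM at E19 and 53.3 CPM at P21 in excitatory neurons.

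Peg3 (ENSMUSG00000002265, chr7:6703892-6730431, minus strand) encodes a large zinc finger protein and is expressed from the paternal copy. In excitatory neurons it stood at 144 CPM at E19, 247 CPM at P4, 259 CPM at P8 and 344 CPM at P21. In inhibitory neurons it stood at 131, 255, 264 and 353 CPM. The level was higher at each later stage in both classes, with the steps from E19 to P4 and from P8 to P21 larger than the one between. The middle step was small: in inhibitory neurons its fold of 1.04 had an interval of 0.977 to 1.10, and in excitatory neurons its log2 ratio of 0.07 became -0.01 without the subtype EN7. Over the whole interval Peg3 rose 2.39-fold in excitatory neurons (2.26 to 2.53) and 2.70-fold in inhibitory neurons (2.50 to 2.92). It was higher at P21 than at E19 in all 9 excitatory subtypes, 8 of them by 2-fold or more, and rose in all 10 inhibitory subtypes. EN6 held the least of the excitatory subtypes at E19, 34.7 CPM, and the most at P21, 451 CPM, a log2 ratio of 3.52. At E19 the fold of EN1 over EN6 was 4.72 with a wide interval, 2.28 to 11.8, so the EN6 value there is imprecise. A Peg3 UMI was found in 62.1% of excitatory nuclei at E19 and 98.1% at P21, and after thinning to 2000 UMIs in 24.1% and 50.1%.

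Outside neurons Peg3 stood at 82.1, 87.1, 103 and 165 CPM in astrocytes, 2.01-fold higher at P21 than at E19 (1.55 to 2.63). With 5 CPM added the log2 ratio was 0.96, so it did not count as a rise. It stood at 61.1, 101, 81.8 and 65.5 CPM in the oligodendrocyte lineage and at 68.2, 83.3, 60.3 and 75.2 CPM in vascular leptomeningeal cells. Microglia held 17.7, 55.1, 39.5 and 144 CPM from 1, 4, 3 and 16 UMIs. The higher level of Peg3 at P21 thus counted as a rise in neurons and was just short of counting in astrocytes. The difference between classes was not tested.

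Usp29, a ubiquitin protease gene, starts 164 bases from Peg3 on the opposite strand and is also paternally expressed. Unlike Peg3 it was not higher at P21: it stood at 812 CPM at E19 and 714 CPM at P21 in excitatory neurons, and at 797 and 753 CPM in inhibitory neurons. For each 1000 Usp29 UMIs there were 177, 313, 316 and 481 Peg3 UMIs in excitatory neurons and 164, 330, 322 and 468 in inhibitory neurons. In astrocytes the ratio was 524, 786, 1153 and 3045. The balance between these divergent genes thus moved toward Peg3 in each of the 3 classes. Zim1, a neighbour expressed from the maternal copy, stood at 15.3 CPM at E19 and 11.9 CPM at P21 in excitatory neurons and at 14.4 and 6.10 CPM in inhibitory neurons.

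**Figure D5:**
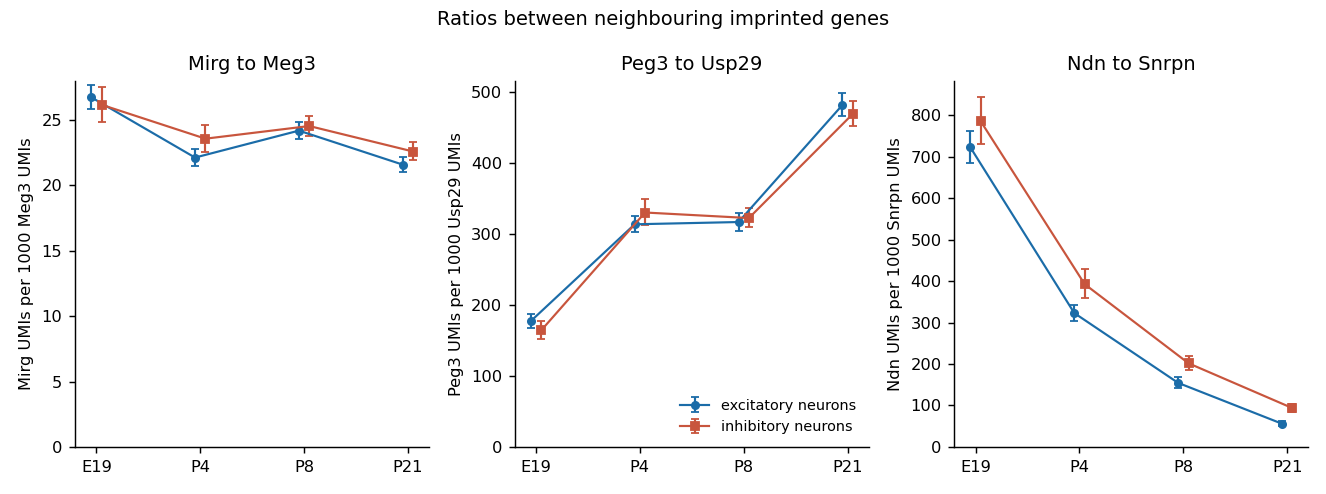
Number of UMIs of 1 imprinted gene for each 1000 UMIs of a neighbour in excitatory neurons (circles) and inhibitory neurons (squares) at the 4 stages, for Mirg to Meg3, Peg3 to Usp29 and Ndn to Snrpn; bars are exact 95% intervals of counting error. The first ratio stayed between 21.6 and 26.7, the second was higher at P21 than at E19, and the third was lower at each later stage.

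Snrpn and Ndn lie in the paternally expressed cluster of chromosome 7 whose human counterpart is lost in Prader-Willi syndrome. Snrpn (ENSMUSG00000102252, chr7:59982495-60140219, minus strand) encodes a core protein of the spliceosome that neurons use. Its row overlaps Snurf and Gm38393 on the same strand. Snurf had no UMI in neurons at E19 or P21. Snrpn stood at 286, 286, 317 and 368 CPM in excitatory neurons and at 295, 277, 332 and 362 CPM in inhibitory neurons, within 2-fold at all stages. At P21 EN12 held 155 CPM and EN13 574 CPM, a 3.70-fold range (3.09 to 4.45). At E19 the range over excitatory subtypes was 1.73-fold (1.23 to 2.49). EN12 and EN13 were not among the subtypes profiled at E19, so these ranges cover different subtypes. Whether the 9 shared excitatory subtypes moved apart was not tested. The 10 inhibitory subtypes were the same at both stages and were further apart at P21. There IN10 held 205 CPM against 607 CPM in IN8, 2.96-fold (2.35 to 3.75), and the E19 range was 1.88-fold (1.46 to 2.40). In astrocytes Snrpn stood at 100, 63.4, 78.2 and 28.3 CPM and fell 3.55-fold (2.47 to 5.17) from E19 to P21. The oligodendrocyte lineage held 132, 66.0, 68.1 and 63.8 CPM, and vascular leptomeningeal cells 13.6, 12.2, 22.9 and 26.2 CPM. In microglia Snrpn stood at 17.7, 13.8, 39.5 and 63.0 CPM.

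Ndn (ENSMUSG00000033585, chr7:62346569-62350262, plus strand) encodes necdin, a MAGE-family protein of postmitotic neurons. It stood at 207 CPM (199 to 215) at E19, 92.5 CPM at P4, 49.1 CPM at P8 and 20.6 CPM at P21 in excitatory neurons, and at 232, 109, 67.0 and 34.0 CPM in inhibitory neurons. Each stage was lower than the one before, in each neuron subtype compared as well. From E19 to P21 Ndn fell 10.0-fold in excitatory neurons (8.90 to 11.4) and 6.82-fold in inhibitory neurons (6.09 to 7.66). The step from E19 to P4 alone was past 2-fold in both classes: of the 7 genes, Ndn fell in excitatory neurons, where 0.701% of all genes did, and Ndn and Nnat fell in inhibitory neurons, where 0.582% did. Ndn was higher in inhibitory than in excitatory neurons in all 4 libraries, by 1.12-fold, 1.18-fold, 1.37-fold and 1.65-fold.

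The lower level of Ndn at later stages was shared by the other classes. Astrocytes held 214, 153, 94.3 and 28.9 CPM, the oligodendrocyte lineage 341, 224, 95.4 and 22.1 CPM, and vascular leptomeningeal cells 191, 142, 91.4 and 25.1 CPM. Microglia held 248 CPM (135 to 416), 179, 184 and 54.0 CPM, at or above the neuron values. A Ndn UMI was found in 53.8% of their nuclei at E19. In CPM, then, the neuronal level of Ndn was not above the microglial one, but microglial nuclei were shallower. At E19 they gave 14 Ndn UMIs in 13 nuclei, against 2386 in 1338 excitatory and 1382 in 893 inhibitory nuclei. At P8 they gave 14 in 21, against 647 in 867 and 743 in 1088. Relative to the ribosomal protein genes Ndn was 3.49-fold lower at P21 than at E19 in excitatory neurons and 2.04-fold lower in inhibitory neurons, and in the latter the log2 ratio with added CPM, -0.97, was short of 2-fold. The part of free and cytosolic RNA in the course of Ndn was not tested. For each 1000 Snrpn UMIs there were 723, 323, 155 and 56.0 Ndn UMIs in excitatory neurons and 786, 393, 202 and 93.7 in inhibitory neurons, so these members of 1 imprinted cluster took different courses.

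Of the other genes of the cluster, Magel2, a relative of Ndn, stood at 19.7 CPM at E19 and 4.52 CPM at P21 in excitatory neurons and at 15.8 and 3.89 CPM in inhibitory neurons, below the minimum level. Ube3a, a ubiquitin ligase that neurons express from the maternal copy, stood at 327 and 360 CPM in excitatory and at 348 and 364 CPM in inhibitory neurons. Atp10a, a lipid transporter, stood at 22.5 and 38.4 CPM in excitatory neurons. Mkrn3 gave 0 UMIs in neurons at both stages, and Peg12 gave 1 and 0 in excitatory and 2 and 0 in inhibitory neurons.

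Plagl1 (ENSMUSG00000019817, chr10:13060504-13131694, plus strand) encodes a zinc finger transcription factor that restrains cell division and acts on other imprinted genes. It was low in neurons, at 9.54, 7.85, 8.42 and 9.52 CPM in excitatory and 8.89, 3.91, 10.4 and 7.25 CPM in inhibitory neurons. EN4 was the highest excitatory subtype at E19, P4 and P8, at 28.4, 25.1 and 23.8 CPM. In astrocytes Plagl1 stood at 62.6, 26.7, 12.1 and 12.9 CPM, a fall of 4.85-fold (2.90 to 8.41) from E19 to P21. The class labelled Epithelial Cell held the most, 340, 296, 422 and 186 CPM, from 13, 17, 32 and 40 nuclei. At E19, 11 of its 21 Plagl1 UMIs came from 1 nucleus, and without the nucleus richest in Plagl1 the 4 values were 183, 191, 361 and 170 CPM. Vascular leptomeningeal cells held 54.6, 22.3, 20.8 and 8.72 CPM.

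Impact (ENSMUSG00000024423, chr18:12955852-12992950, plus strand) encodes an inhibitor of the kinase Gcn2, which slows translation under amino acid shortage. It stood at 39.0, 55.3, 48.4 and 89.5 CPM in excitatory neurons and at 35.7, 52.6, 49.9 and 98.6 CPM in inhibitory neurons. The values of P4 and P8 were close to each other, and that of P21 was the highest in both classes. From E19 to P21 Impact rose 2.29-fold in excitatory neurons (2.06 to 2.56) and 2.76-fold in inhibitory neurons (2.38 to 3.21). With 20 CPM added in place of 5, the excitatory log2 ratio of 1.10 became 0.89, short of 2-fold. From P8 to P21 it was higher in all 11 excitatory and all 10 inhibitory subtypes, 3 and 6 of them by 2-fold or more. Astrocytes held 39.9, 68.3, 65.3 and 70.7 CPM of Impact, the oligodendrocyte lineage 30.5, 39.6, 39.5 and 79.1 CPM, and vascular leptomeningeal cells 54.6, 67.0, 58.2 and 91.6 CPM. Microglia held 124, 110, 26.3 and 171 CPM, from 19 or fewer UMIs in a library, and the neuronal level was above theirs at P8 only, there within their counting interval.

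In astrocytes 7 of the 9 genes were at 20 CPM or more between E19 and P21. Of these, 4 fell (Nnat, Snrpn, Ndn and Plagl1), where 18.2% of all genes did, and none rose, where 8.6% did. The median log2 ratio of the 7 genes there was -1.66, against -0.24 over all genes. In the oligodendrocyte lineage 3 of 7 fell from P8 to P21 (Nnat, Ndn and Meg3), where 20% of all genes did, and in vascular leptomeningeal cells 3 of 8 fell (Ndn, Meg3 and Mirg), where 8.5% did.

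A list of other imprinted genes gave 49 of its 51 genes in the matrix. From E19 to P21 in excitatory neurons 25 were at 20 CPM or more, of which 2 rose and 3 fell, shares near the 5.35% and 10.7% of all genes that did so, with a median log2 ratio of -0.06, equal to that of all genes. In inhibitory neurons 2 of 24 rose and 3 fell, beside 5.83% and 11.3% of all genes, with a median of -0.08 against -0.04. The same genes made up both counts. Rasgrf1, an exchange factor for Ras, rose from 50.7 to 507 CPM in excitatory neurons, 9.99-fold (9.18 to 10.9), and from 29.7 to 519.5 CPM in inhibitory neurons. Airn, the antisense RNA of Igf2r, rose from 77.8 to 197 CPM in excitatory neurons and from 45.5 to 237 CPM in inhibitory neurons. Those that fell were Blcap, given above, H13, a signal peptide peptidase, from 133 to 57.2 CPM, and Nespas, the antisense RNA of the Gnas locus, from 37.2 to 6.71 CPM, in excitatory neurons. In inhibitory neurons H13 fell from 120 to 55.0 CPM and Nespas from 33.7 to 9.11 CPM.

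The remaining genes among the 10 largest differences of the list did not count as higher or lower in excitatory neurons. Of them, Kcnk9 was 2.04-fold higher at P21 than at E19 (1.78 to 2.34), but its log2 ratio with 5 CPM added was 0.90. Kcnq1ot1, the noncoding RNA of the Kcnq1 domain, stood at 558 CPM at E19 and 804 CPM at P21, Grb10 at 116 and 193 CPM, and the potassium channel gene Kcnk9 at 25.2 and 51.4 CPM. Inpp5f stood at 125 and 70.4 CPM, Cd81 at 91.0 and 45.5 CPM, and Mest at 38.9 and 33.9 CPM. In astrocytes 1 of 23 listed genes rose and 11 fell, with a median log2 ratio of -0.81. Over all genes in astrocytes 8.6% rose and 18.2% fell, with a median of -0.24.

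Factors that keep imprints through early development were also counted. Of 10 such genes, 7 were at 20 CPM or more in neurons. From E19 to P21, 2 of these 7 fell in excitatory neurons, where 10.7% of all genes did. In inhibitory neurons 1 of 7 fell, where 11.3% of all genes did. Zfp57, the zinc finger protein that binds methylated imprint control regions, fell from 116 CPM at E19 to 11.2 CPM at P21 in excitatory neurons and from 134 to 20.2 CPM in inhibitory neurons. Trim28, its partner, fell from 45.4 to 20 CPM in excitatory neurons and its log2 ratio of -0.96 was just short of 2-fold in inhibitory neurons. No factor of the list rose by 2-fold in either class, where 5.35% (excitatory) and 5.83% (inhibitory) of all genes did.

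The genes most like each member were sought by Pearson correlation of log2 levels over 109 profiles, each a subtype at a stage with at least 30 nuclei, among 7468 genes. Profiles of 1 stage share a library, and all share depth and free RNA, so the values describe and are not tested. Nnat was most like Actg1 (0.94), Tubb5 (0.93) and Eef1a1 (0.93), RNAs of the cytoskeleton and of translation, and Ndn was most like Actg1 (0.94), Ubb (0.94) and Rpl14 (0.94). Meg3 was most like Mirg (0.97), Snhg11 (0.96) and B830012L14Rik (0.95), so that 2 of its 3 nearest patterns came from its own domain. Those of Mirg were Meg3 (0.97), B830012L14Rik (0.94) and Snhg11 (0.92).

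Peg3 was most like Dync1i1 (0.88), Dzank1 (0.86) and Eno2 (0.85), and Snrpn like Gm38393 (0.91), whose row overlaps it, Usp29 (0.91) and Rbfox3 (0.91). Impact was most like Tef (0.76), Lncpint (0.73) and Nr1d2 (0.72). For Dlk1 and Plagl1, whose mean levels over the profiles were below 20 CPM, the highest values were 0.47 with Selenos and 0.65 with Smg6, too weak in sparse counts to describe a pattern. With profiles of at least 100 nuclei, all 3 genes named for Mirg, 2 of those for Meg3 and 1 each for Nnat, Peg3 and Snrpn were found again, and none of those for Ndn, Dlk1, Plagl1 and Impact.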

How the data were processed

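RNA of single nuclei was measured at 4 stages with 1 library each, 9724 nuclei in all. The deposited matrix holds UMI counts per gene and nucleus, not normalised; per the labels, reads were processed with Cell Ranger 3.0.2 against a pre-mRNA reference of mm10, so intronic reads were counted and long introns add to a gene's level. The annotation release, the strand setting, the filters on nuclei and the treatment of doublets are stated in none of the sources used here. The deposited percentage of mitochondrial UMIs, taken as the authors computed it, had medians of 0.64%, 0.79%, 0.34% and 0.23% from E19 to P21. Totals per nucleus recomputed from the matrix equalled the deposited totals in 9724 of 9724 nuclei; 8 other columns of the deposited nucleus table were not used. Library totals from E19 to P21 were 19277512, 23579145, 27436259 and 31325079 UMIs.

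The members and lists were chosen with earlier results of these data known. UMIs were summed per library and class or subtype and divided by the class total; cells are not replicates, and with 1 library per stage no test was made. Levels carry exact Poisson intervals, ratios exact conditional binomial intervals, and a UMI count of 0 was read as up to 3 counts. Stage steps were compared in classes with at least 50 nuclei at both stages, subtypes with at least 30 nuclei. Named were all members, other imprinted genes of their domains, the 10 largest ratios of the remaining listed genes, imprint maintenance factors past 2-fold, and the 3 genes most correlated with each member. Alternatives were pseudocounts of 1 and 20 CPM, median-of-ratios scaling, equal weights of nuclei or subtypes, thinning to 2000 UMIs, minimum levels, leaving out EN7, the deepest 5% of nuclei or the richest nucleus, and, added later, scaling to ribosomal protein genes. The interval and ratio code was tested on simulated counts. Positions are from GENCODE M21, and upstream and microRNA sequences from RefSeq tables. Python 3.11.15 was used with numpy 2.4.6, scipy 1.17.1, pandas 2.3.3 and matplotlib 3.10.9.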

Additional observations from a re-analysis of the deposited data

Results flagged for a closer look

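In 5 comparisons a gene moved one way in a neuron class and the other way in another class, with counting intervals that excluded no change on both sides. The share of all genes that did so was not computed, so the count is not read as a trait of these genes. Intervals of abundant RNAs exclude no change at small ratios, as for Meg3 in inhibitory neurons from P8 to P21, 1.08-fold (1.08 to 1.09). The difference between the classes was not tested, since each stage had 1 library. For Nnat from P8 to P21 the log2 ratio was 0.47 in vascular leptomeningeal cells and -3.59 in inhibitory neurons, 4.06 apart. For Meg3 over the same step it was 0.12 in inhibitory neurons and -1.40 in vascular leptomeningeal cells, 1.52 apart, and from E19 to P21 it was 0.75 in inhibitory neurons and -0.36 in astrocytes, 1.11 apart. For Snrpn the ratio from E19 to P21 was 0.36 in excitatory neurons and -1.66 in astrocytes, 2.02 apart, and from P8 to P21 it was 0.21 and -1.32, 1.53 apart.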

How the results depend on the processing

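No paired analysis was possible because each stage had 1 library, and no replicate could be left out. No ratio of 2-fold or more changed direction. Scaling to ribosomal protein genes was a setting added after seeing the data. With it, the set rising from E19 to P21 went from 2 to 5 genes in each neuron class. On that scale 72.5% (excitatory) and 81.4% (inhibitory) of all genes rose over this interval. The set falling from E19 to P21 in inhibitory neurons went from 2 to 1, where 0.952% of all genes fell. The set rising from P8 to P21 went from 0 to 1 (excitatory) and from 0 to 2 (inhibitory), where 8.85% and 18.6% of all genes rose. The set falling from P8 to P21 in excitatory neurons went from 2 to 1, where 1.32% of all genes fell. The last was also 1 with 20 CPM added and 1 after thinning, where 1.28% and 3.87% of all genes fell. The set rising from E19 to P21 in excitatory neurons was 1 with 20 CPM added, where 2.76% of all genes rose. With subtypes weighted alike 1 member rose from P8 to P21 in inhibitory neurons, where 2.57% of all genes did.

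Of other imprinted genes from E19 to P21, those falling in excitatory neurons numbered 7 without a minimum level and 1 at a minimum of 100 CPM, and in inhibitory neurons 6, 1 and, with 20 CPM added, 1; those rising in inhibitory neurons numbered 4 with subtypes weighted alike. Maintenance factors falling in excitatory neurons numbered 1 with 20 CPM added, 1 under median-of-ratios scaling and 1 at a minimum of 100 CPM. In inhibitory neurons they numbered 2 with 1 CPM added. Of all genes, 5.41% (excitatory) and 5.92% (inhibitory) fell with 20 CPM added. Under median-of-ratios scaling 9.87% fell in excitatory neurons, and with 1 CPM added 13.3% fell in inhibitory neurons. With subtypes weighted alike 6.92% rose in inhibitory neurons. Shares of all genes at the other minimum levels were not computed. Members higher in the same neuron class in all libraries numbered 3, and 5 under median-of-ratios scaling, which added Meg3 and Peg3 on the excitatory side. They numbered 4 with subtypes weighted alike and after thinning, both of which added Snrpn on the inhibitory side. These counts take the side alone, at any size of difference, and the share of all genes on 1 side in all libraries was not computed. Dlk1, 1 of the 3, had 2 and 1 inhibitory UMIs at P8 and P21.

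Over all alternatives the log2 ratio of Nnat from P8 to P21 lay between -3.54 and -2.60 in excitatory and between -3.80 and -3.03 in inhibitory neurons. That of Ndn from E19 to P21 lay between -3.27 and -1.68 and between -2.73 and -0.97. Of 684 log2 ratios between stages recomputed, 193 moved by more than their counting interval. Of 72 neuronal ratios 13 changed sign under at least 1 alternative, 7 of them under one other than ribosomal scaling. In excitatory neurons ribosomal scaling took Mirg from P8 to P21 from -0.13 to 0.32 and Impact from P4 to P8 from -0.17 to 0.26. Other settings took Dlk1 from P4 to P8 from -0.21 to 0.11 (subtypes weighted alike), Plagl1 from 0.06 to -0.14 (thinned), Peg3 from 0.07 to -0.01 (without the subtype EN7), and Snrpn from E19 to P4 from 0.00043 to -0.03 (subtypes weighted alike). Depth limits Dlk1 and Plagl1 in neurons and every gene in microglia, endothelial cells and the class labelled Epithelial Cell.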
